A study of Mus musculus with 6 samples.

Results

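Lipid-associated macrophages are macrophages that take up and break down fat and dying cells in fatty tissue. They are recognised by a shared set of transcripts for surface proteins, lysosomal membrane proteins and secreted lectins, and in fatty liver they gather around lipid-laden and injured hepatocytes. Trem2, a surface receptor that binds lipids and signals through the adaptor Tyrobp, is known to drive much of this set. The 9 markers followed here, chosen by gene name, were Gpnmb, Cd9, Spp1, Lgals3, Cd63, Cd68, Itgax, Clec7a and Capg. All 9 names matched 1 row each of the 54532 genes counted, and 8 of the 9 were among the 13693 genes with enough reads to be tested.

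The markers were measured by bulk RNA sequencing of whole liver from male mice that were put on a high-fat diet at 8 weeks of age and kept on it for 8 weeks. The 3 libraries labelled WT came from wild-type littermates, and the 3 labelled KO from Trem2-deficient (Trem2–/–) mice. The diet was common to both groups, no group on another diet was analysed here, and neither the deleted exons nor the strain are given in the sources used here. Labels do not state that each library is another mouse, so p-values measure the spread between these libraries, which may be technical. In whole tissue, a change in the number of macrophages and a change in marker RNA per macrophage cannot be told apart.

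Libraries held 11591021 to 20399361 counts, of which 1214 to 2079 fell on the 9 markers. The targeted gene did not separate the labels: Trem2 had 7, 26 and 26 counts in WT-labelled replicates 1, 2 and 3 and 9, 6 and 5 in KO-labelled replicates 4, 5 and 6, so that WT replicate 1 lay within the KO range (edgeR adjusted p = 0.633). Every direction given here is therefore between libraries as labelled. KO replicate 5 stood apart by reads of 5 adipocyte genes, described below. Mitochondrially encoded genes took 8.16% to 12.7% of the counts in the WT-labelled libraries, and 28.0%, 9.08% and 19.8% in KO replicates 4, 5 and 6.

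Levels are given as CPM, read counts brought to a common library size with edgeR's TMM scaling, or as FPKM, the authors' deposited values per kilobase of gene length, where genes are set side by side. Differences are log2 fold changes, positive where the KO-labelled libraries were higher, from edgeR's quasi-likelihood test, with a standard error (SE) and a p adjusted over all genes tested. A gene was called at an adjusted p under 0.05.

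Capg and Lgals3 were 3.60-fold and 3.11-fold higher in the KO-labelled livers, each with all 3 KO-labelled libraries above all 3 WT-labelled ones, but no marker was called over all genes. Cd68 also had groups that did not overlap, at a smaller 1.64-fold difference. Cd63, Itgax, Cd9, Spp1 and Clec7a had overlapping groups, with fitted folds between 1.13 and 1.67. Gpnmb, a glycoprotein of lysosomes and the cell surface, was nearly absent outside 1 library.

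Of the 8 markers tested, 0 were called, where edgeR called 2 of all genes (0.0146%). Of these 8, 2 had an unadjusted p under 0.05 as higher, where 5.37% of all genes tested did. All 8 were fitted higher (49.1% of all genes were), with a median log2 fold change of 0.68 (0.43 without WT replicate 1) against −0.01 over all genes tested. A median of this size was not particular to the markers. Of the cell type lists described below, the sinusoidal endothelial list had 8 of 8 tested genes fitted higher, with a median of 0.68. Medians were 0.66 for the stellate cell, 0.50 for the general macrophage and 0.44 for the Kupffer cell list. They were −0.07 for dendritic cell, −0.57 for hepatocyte, −0.61 for lymphocyte and −0.90 for neutrophil genes. In 3 of the 8 markers the 3 KO-labelled values lay above the 3 WT-labelled values (8.12% of all genes). Of the 8 markers, 7 exceeded the cutoff of the count filter in all 6 libraries. Itgax exceeded it in 3 KO-labelled and 2 WT-labelled libraries. For Itgax only the KO-labelled group thus met by itself the 3 libraries that the filter asks for. With DESeq2, which called 1.29% of all genes it adjusted, 2 markers were called, Capg (adjusted p = 0.000814) and Lgals3 (adjusted p = 0.0209). Limma-voom with sample quality weights called 4 of the 8, Capg, Lgals3, Spp1 and Cd68, in a fit that called 29.7% of all genes. Without these weights limma-voom called 0 of the 8, with an adjusted p of 0.347 for Capg and 0.448 for Lgals3. That fit called 1 of all genes (0.0073%).

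**Figure D1:**
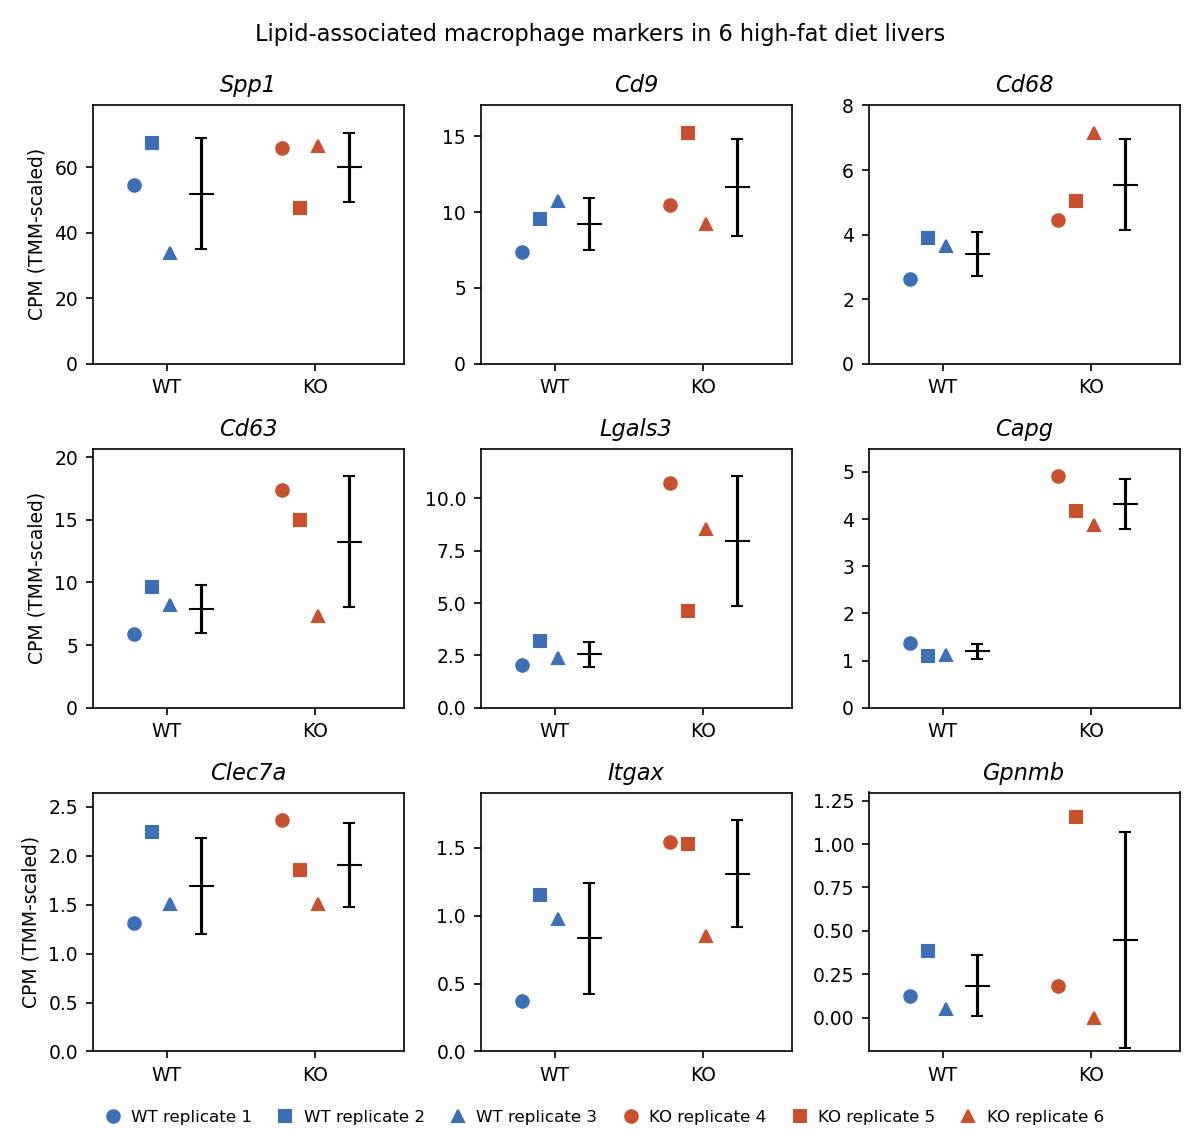
TMM-scaled CPM (y axis, a separate scale in each panel) of the 9 markers in the 3 WT-labelled (blue) and 3 KO-labelled (orange) liver libraries, 1 symbol per library, with the group mean and SD in black. Capg, Lgals3 and Cd68 have KO-labelled values that all lie above the WT-labelled ones, and Gpnmb has 1 high value, 1.158 CPM in KO replicate 5.

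**Figure D2:**
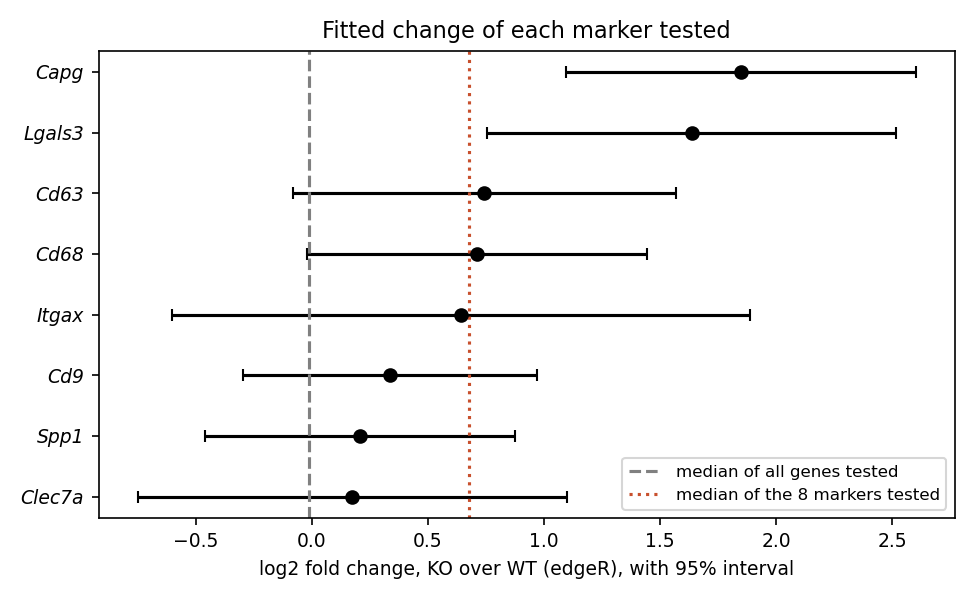
Fitted log2 fold change, KO-labelled against WT-labelled (x axis), with its 95% interval for the 8 markers tested, beside the median of these 8 (0.68, dotted) and of all 13693 genes tested (−0.01, dashed). The intervals of Capg and Lgals3 lie above 0, and those of the other 6 include 0.

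Promoter sequence was compared for letters that the markers share. The window was the 250 bases before the RefSeq start (build GRCm38.p6, which is mm10), and all 9 markers had one (the first listed, for Spp1 and Clec7a). They are shown for the 3 markers whose groups did not overlap and for the most abundant one, Spp1, leaving out stretches inside annotated exons of the window. Capitals mark the motifs found, the AP-1 motif TGANTCA in Cd68 and the PU.1 motif GAGGAAGT in Spp1.
Capg, chr6:72549502-72549646, plus strand: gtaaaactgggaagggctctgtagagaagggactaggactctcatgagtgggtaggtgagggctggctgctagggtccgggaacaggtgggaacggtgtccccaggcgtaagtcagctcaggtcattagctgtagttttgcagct
Lgals3, chr14:47373610-47373812, plus strand: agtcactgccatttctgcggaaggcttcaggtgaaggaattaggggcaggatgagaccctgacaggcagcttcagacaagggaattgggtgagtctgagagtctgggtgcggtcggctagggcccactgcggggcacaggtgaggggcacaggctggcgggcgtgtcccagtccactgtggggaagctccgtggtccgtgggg
Cd68, chr11:69666171-69666420, minus strand: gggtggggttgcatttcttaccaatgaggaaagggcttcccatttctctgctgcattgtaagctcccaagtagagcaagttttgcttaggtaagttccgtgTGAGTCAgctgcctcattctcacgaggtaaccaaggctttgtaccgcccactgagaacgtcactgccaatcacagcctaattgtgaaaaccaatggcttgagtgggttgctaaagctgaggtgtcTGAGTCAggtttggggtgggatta
Spp1, chr5:104434861-104435110, plus strand: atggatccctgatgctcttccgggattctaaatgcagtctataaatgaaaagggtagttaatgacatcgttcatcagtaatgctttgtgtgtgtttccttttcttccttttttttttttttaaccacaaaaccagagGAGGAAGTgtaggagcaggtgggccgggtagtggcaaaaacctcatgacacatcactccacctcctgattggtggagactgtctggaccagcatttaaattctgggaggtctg

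The searched letters were CACGTG (an E-box read by the MITF and TFE factors of lysosomal genes), TCATGTG (the core of the related M-box), TGANTCA (AP-1) and GAGGAAGT (PU.1, a macrophage factor), on both strands. Within the 9 windows no match overlapped another. AP-1 letters were in the windows of Cd68, at positions −149 and −24 from the start, and of Itgax, at −56, so in 2 of 9 markers, while 6.87% of the 27025 gene promoters of that length held them. The PU.1 letters were in the window of Spp1 alone, at −113, and in 2.44% of all promoters. Neither the E-box nor the M-box letters were in any of the 9 windows (6.05% and 3.22% of all promoters). For Capg, Lgals3 and Cd63 the RefSeq start lies 5256, 6109 and 8356 bases inside the gene span given by the deposited table, so that other starts were not searched. The windows of Capg and Lgals3, the markers furthest apart between the labels, held none of the 4 motifs.

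Among secreted and cytosolic proteins, Capg gave the largest difference. Capg, which caps the growing ends of actin filaments and is abundant in macrophages, and whose promoter stretch is printed above, is encoded on mm10 chromosome 6 (ENSMUSG00000056737, 72544391 to 72562983). It stood at 1.37, 1.09 and 1.119 CPM in WT replicates 1, 2 and 3 and at 4.90, 4.17 and 3.87 CPM in KO replicates 4, 5 and 6. The groups were far apart, with means of 1.19 ± 0.155 and 4.32 ± 0.531 CPM (SD, n = 3 each). These levels rest on 17 to 23 reads per WT-labelled and 54 to 90 reads per KO-labelled library. The log2 fold change was 1.85 (SE 0.33, 95% interval 1.09 to 2.60), with an edgeR adjusted p of 0.297 and an exact two-sided permutation p of 0.1, the smallest that 3 against 3 libraries can give. Capg ranked 21 by p among the 13693 genes tested.

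Lgals3, galectin-3, a sugar-binding lectin that macrophages secrete and that marks damaged lysosomes, lies on chromosome 14 (ENSMUSG00000050335, 47367751 to 47386160). Its level was 2.06, 3.20 and 2.38 CPM in WT replicates 1, 2 and 3, and 10.7, 4.63 and 8.54 CPM in KO replicates 4, 5 and 6. The KO-labelled libraries were all higher but differed among themselves, KO replicate 5 being nearest to the WT range. The means were 2.55 ± 0.590 and 7.96 ± 3.08 CPM (SD, n = 3 each), a log2 fold change of 1.64 (SE 0.38, 95% interval 0.75 to 2.52, edgeR adjusted p = 0.383, exact permutation p = 0.1). Within each group the order of the libraries by Lgals3 was the same as their order by mitochondrial share. This order was compared for Lgals3 alone. With that share as a covariate the log2 fold change of Lgals3 was 1.00 (edgeR adjusted p = 0.546), and that of Capg was 1.82. KO replicates 4 and 6 had shares above the WT range, so share and label cannot be fully told apart. The part of the share in the Lgals3 level was not tested.

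Spp1, osteopontin, a secreted matrix and cytokine-like protein that bile duct cells also make, was the most abundant marker and did not separate the groups. The gene (ENSMUSG00000029304) spans 104435118 to 104441050 on chromosome 5. It stood at 54.6, 67.3 and 33.7 CPM in WT replicates 1, 2 and 3, and at 65.7, 47.7 and 66.3 CPM in KO replicates 4, 5 and 6. Both the highest and the lowest library were labelled WT. The log2 fold change was 0.21 (SE 0.29, 95% interval −0.46 to 0.87, edgeR adjusted p = 0.815), and it was −0.05 without WT replicate 3. Of its exonic bases 18.8% also lie in exons of Gm42793 on the same strand, a gene with at most 1 read per library. Because Spp1 made up 49.5% to 72.2% of the summed CPM of the 9 markers, the sum of the other 8 was also taken: 21.1, 31.1 and 28.6 CPM in the WT-labelled libraries and 52.0, 48.6 and 38.5 CPM in the KO-labelled ones. The sum of all 9 overlapped between the groups, at 62.3 to 98.4 and 96.3 to 118 CPM (ratio of means 1.35). Without Spp1 the groups did not overlap, at 26.9 ± 5.24 and 46.4 ± 7.02 CPM (SD, n = 3 each). Spp1 was left out of this sum after its values were seen.

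The 3 lysosomal and tetraspanin markers were fitted higher by less. Cd68, a heavily glycosylated protein of macrophage lysosomes (ENSMUSG00000018774, chromosome 11, 69664213 to 69666153), stood at 2.62, 3.91 and 3.65 CPM in WT replicates 1, 2 and 3 and at 4.45, 5.05 and 7.16 CPM in KO replicates 4, 5 and 6. The gap between the groups was narrow, 3.91 against 4.45 CPM. Its log2 fold change was 0.71 (SE 0.32, 95% interval −0.02 to 1.44, edgeR adjusted p = 0.597, exact permutation p = 0.1).

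Cd63, a tetraspanin of late endosomes and lysosomes (ENSMUSG00000025351, chromosome 10, 128900989 to 128912822), was at 5.86, 9.60 and 8.22 CPM in WT replicates 1, 2 and 3 and at 17.3, 15.01 and 7.36 CPM in KO replicates 4, 5 and 6. KO replicates 4 and 5 were above the WT range, and KO replicate 6 was inside it. The log2 fold change of Cd63 was 0.74 (SE 0.36, 95% interval −0.08 to 1.57, edgeR adjusted p = 0.619). Cd9, a tetraspanin of the cell surface that many cell types carry (ENSMUSG00000030342, chromosome 6, 125460266 to 125494791), was at 7.35, 9.54 and 10.7 CPM in the WT-labelled and 10.4, 15.2 and 9.19 CPM in the KO-labelled libraries. Here KO replicate 5 alone was above the WT range, and the log2 fold change was 0.34 (SE 0.27, 95% interval −0.29 to 0.97, edgeR adjusted p = 0.702), or 0.085 without KO replicate 5 and 0.20 without WT replicate 1. Exons of Gm26728, on the opposite strand and with at most 2 reads per library, cover 10.7% of the exonic bases of Cd9.

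The 2 surface receptors were low and overlapped between the groups. Itgax, the integrin chain CD11c, which dendritic cells also carry (ENSMUSG00000030789, chromosome 7, 128129547 to 128150657), stood at 0.374, 1.15 and 0.973 CPM in WT replicates 1, 2 and 3 and at 1.54, 1.53 and 0.854 CPM in KO replicates 4, 5 and 6. These are 6 to 33 reads per library, and WT replicate 1 was the lowest (95% exact Poisson interval 0.137 to 0.814 CPM, counting error only). Its log2 fold change was 0.64 (SE 0.54, 95% interval −0.60 to 1.89, edgeR adjusted p = 0.711), and it was 0.30 without WT replicate 1. Clec7a, the fungal sugar receptor dectin-1 (ENSMUSG00000079293, chromosome 6, 129461591 to 129472779, given in the deposited table as a polymorphic pseudogene), was at 1.31, 2.24 and 1.51 CPM in the WT-labelled and 2.36, 1.85 and 1.51 CPM in the KO-labelled libraries. The 2 ranges nearly coincided, and the log2 fold change was 0.17 (SE 0.40, 95% interval −0.75 to 1.098, edgeR adjusted p = 0.893).

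Gpnmb, a glycoprotein of lysosomes and the cell surface (ENSMUSG00000029816, chromosome 6, 49036546 to 49070929), did not pass the count filter and so was not among the 13693 genes tested. It had 2, 6 and 1 reads in WT replicates 1, 2 and 3 and 2, 25 and 0 reads in KO replicates 4, 5 and 6. The 25 reads of KO replicate 5 correspond to 1.158 CPM (95% exact Poisson interval 0.749 to 1.71), and the 0 reads of KO replicate 6 allow up to 0.197 CPM, taking 3 counts as the limit. With no count filter, which brought all 9 markers into a test of 24643 genes, Gpnmb had a log2 fold change of 1.35 (edgeR adjusted p = 0.731). Of the 8 genes in the fat tissue list, 5 (Adipoq, Plin1, Lep, Retn and Slc36a2) were also nearly confined to KO replicate 5. Adipoq, the adipocyte hormone adiponectin, had 125 reads there and 0 to 2 in the other 5 libraries. Lep, leptin, had 64 reads there and 0 elsewhere, and Plin1, which coats the fat droplets of adipocytes, had 122 against 0 to 5. Folr2, a folate receptor of resident macrophages, had 32 reads in that library and 0 to 3 in the others. The other 3 genes of that list did not single it out: Plin4, a lipid droplet protein, was at 57.4, 30.2 and 83.7 CPM in KO replicates 4, 5 and 6, Cfd was highest in KO replicate 4 and Car3 in KO replicate 6. The part of fat tissue in the Gpnmb reads was not tested. Adipoq, Lep, Plin1 and Folr2 were picked from the marker lists after their values were seen. Without KO replicate 5, Capg had a log2 fold change of 1.87 (edgeR adjusted p = 0.197) and Lgals3 1.91 (edgeR adjusted p = 0.186), and the median of the 8 markers was 0.57.

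**Figure D3:**
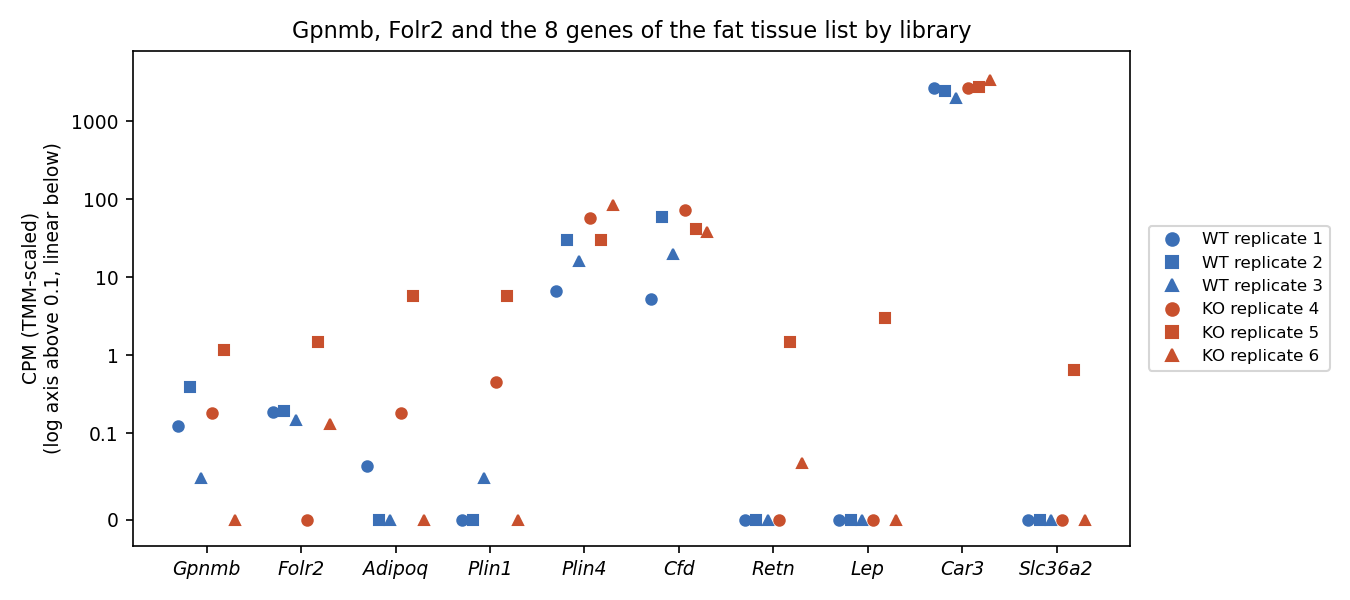
TMM-scaled CPM (y axis, log scale above 0.1 and linear below) of Gpnmb, Folr2 and the 8 genes of the fat tissue list, 1 symbol per library. KO replicate 5 is highest for Gpnmb, Folr2, Adipoq, Plin1, Lep, Retn and Slc36a2, and not for Plin4, Cfd or Car3.

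Per gene length the markers spanned a wide range of levels. Spp1 had a mean of 33.7 ± 8.08 FPKM (SD, n = 6), above Cd9 in 6 of 6 libraries at 5.04 ± 1.19 FPKM. Cd9 was above Cd68 in 5 of 6 libraries, with ranges that overlapped. Cd68, Cd63 and Lgals3 followed at 3.52 ± 1.19, 2.84 ± 1.19 and 2.79 ± 1.88 FPKM, with ranges that overlapped. Each SD here is over both labels and so also holds any difference between the labels. Lgals3 was above Capg in 6 of 6 libraries. Capg was above Clec7a in 4 of 6, with ranges that overlapped, at 1.07 ± 0.672 and 0.675 ± 0.156 FPKM. By label, Capg was at 0.475 ± 0.0744 FPKM (WT-labelled) and 1.67 ± 0.210 FPKM (KO-labelled, SD, n = 3 each). Itgax (0.220 ± 0.0887 FPKM) and Gpnmb (0.0476 ± 0.0644 FPKM) were lowest. For 4 of the 8 neighbouring pairs the count of libraries in this order differed between the labels, which was not tested. Cd68 was above Cd63 in 3 of 3 WT-labelled and 1 of 3 KO-labelled libraries, and Cd63 above Lgals3 likewise in 3 of 3 and 1 of 3. Capg was above Clec7a in 1 of 3 and 3 of 3, and Cd9 above Cd68 in 3 of 3 and 2 of 3.

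The markers did not vary as 1 block over the 6 libraries. On log2 CPM centred on each marker's own mean, WT replicate 1 was the lowest library for 6 of the 8 tested markers, and KO replicate 4 was above the mean for 8 of 8. KO replicate 6 was above the mean for 4 of 8. The most alike pair was Cd63 and Itgax, whose centred profiles differed by a root mean square of 0.26 (log2 units, 6 libraries) and which put the 6 libraries in the same order. Lgals3 and Capg were nearest to each other, at 0.43. For Cd9, Spp1, Cd68 and Clec7a, 1033 to 2089 of 8845 other protein-coding genes with at least 5 CPM were nearer than the nearest fellow marker, against 9 to 127 for Cd63, Itgax, Capg and Lgals3. These counts also depend on how widely a marker varied, so they do not show which markers vary together. The centred profiles of Cd9, Spp1, Cd68 and Clec7a spanned 0.80 to 1.41 log2 units, and those of Cd63, Itgax, Capg and Lgals3 1.55 to 2.32.

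**Figure D4:**
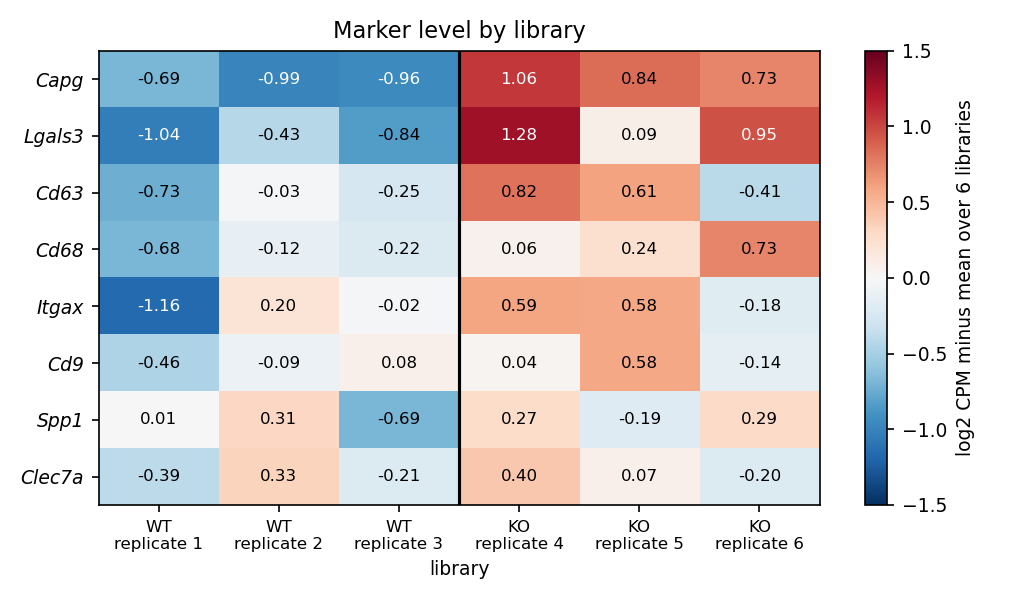
Log2 CPM of the 8 tested markers (rows) in the 6 libraries (columns), each minus its mean over the 6 libraries, with the value in each cell and a vertical line between the labelled groups. Capg and Lgals3 are below their mean in every WT-labelled and above it in every KO-labelled library, and WT replicate 1 is the lowest library for 6 of the 8.

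The genes whose profiles came nearest to Capg were Ucp2, a mitochondrial carrier (root mean square difference 0.23, log2 fold change 1.42), and Orm2, an acute phase glycoprotein (0.26, log2 fold change 1.31). Nearest to Lgals3 were Spon2, a secreted matrix protein (0.16, log2 fold change 1.86), and 2010003K11Rik (0.17, log2 fold change 1.53). Cd63 came nearest to the matrix-related genes Mxra8 (0.18) and Col15a1 (0.23). For the other 5 markers the 2 nearest genes were Med22 and Vhl for Cd9, Adam23 and Atxn7l1 for Spp1, Arl2 and Tmem184a for Cd68, Oraov1 and Lamb2 for Itgax, and Acvr1b and Zfp180 for Clec7a, at root mean square differences of 0.06 to 0.18. All 16 had edgeR adjusted p of 0.236 or more.

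Other genes of the lipid-associated programme were not called in either direction. Of 20 such genes 18 were tested and 0 called. Of the 18, 11 were fitted higher and 7 lower, with a median log2 fold change of 0.21, and 5 had an unadjusted p under 0.05 as higher and 1 as lower (3.21% of all genes tested were lower at that p). Cd36, a fatty acid transporter that hepatocytes also express, had a log2 fold change of 1.67 (SE 0.29, edgeR adjusted p = 0.297), and Lgals1, galectin-1, of 1.95 (SE 0.49, edgeR adjusted p = 0.40). Tyrobp, the signalling partner of Trem2, averaged 5.09 ± 0.987 CPM under the WT label and 9.89 ± 1.42 CPM under the KO label (SD, n = 3 each; log2 fold change 0.95, SE 0.26, edgeR adjusted p = 0.40). On the lower side, Trem2 had a log2 fold change of −1.30 (SE 0.68), and Fabp5, a fatty acid carrier, of −1.67 (SE 0.63, edgeR adjusted p = 0.526). Fabp5 was at 16.3 ± 14.8 CPM in the WT-labelled libraries, where WT replicate 1 had 532 reads and the other two 90 and 204.

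For general macrophage genes the summed level was higher in the KO-labelled libraries without overlap, while no gene was called. All 16 genes of the macrophage and leukocyte list were tested: 14 were fitted higher, 6 had an unadjusted p under 0.05 as higher, and 0 were called by edgeR. Their median log2 fold change was 0.50, and their summed level was 163 to 215 CPM in the WT-labelled and 241 to 254 CPM in the KO-labelled libraries. C1qa, a complement subunit made by macrophages, had a log2 fold change of 0.83 (SE 0.23) and Mpeg1, a pore-forming macrophage protein, of −0.21 (SE 0.25). Set against this sum, Capg was 0.659% ± 0.135 of it in the WT-labelled and 1.76% ± 0.243 in the KO-labelled libraries (SD, n = 3 each), a 2.67-fold difference without overlap (exact permutation p = 0.1). Lgals3 was 1.42% ± 0.473 and 3.27% ± 1.33 of the sum, with overlapping groups (exact permutation p = 0.2), as WT replicate 2 at 1.96% was above KO replicate 5 at 1.82%. Cd68 overlapped as well, at 1.87% ± 0.467 and 2.26% ± 0.601, and the ratios of Cd63, Itgax, Cd9, Spp1 and Clec7a to the sum were 0.825 to 1.23 times those of the WT-labelled libraries. In whole tissue these ratios do not give marker RNA per macrophage, and which cells held the marker reads was not tested.

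Markers of other liver cells had 0 genes called in any list by edgeR, and their part in the marker levels was not tested. For Kupffer cells, the macrophages resident in liver, 6 of 8 tested genes were fitted higher, and the summed level was 136 to 246 CPM (WT-labelled) and 216 to 290 CPM (KO-labelled). Clec4f, the Kupffer cell lectin, had a log2 fold change of 0.94 (SE 0.34) and Id3, a transcriptional inhibitor, of −0.01 (SE 0.56). Stellate cell genes summed to 211 to 231 CPM and 246 to 555 CPM, without overlap, KO replicate 5 being highest. In that list 8 of 11 tested genes were fitted higher, with Col3a1, a fibrillar collagen, at a log2 fold change of 2.28 (SE 0.51) and Dcn, decorin, at −0.01 (SE 0.31). Sinusoidal endothelial genes were all 8 fitted higher and summed to 179 to 244 CPM and 285 to 435 CPM, led by Eng, endoglin (log2 fold change 1.04, SE 0.30), and Stab1, a scavenger receptor that macrophages also carry (log2 fold change 1.02, SE 0.42).

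Cholangiocyte genes, of the bile ducts that also make Spp1, had 5 of 7 tested genes fitted higher and summed to 18.4 to 31.2 CPM in the WT-labelled and 23.8 to 32.8 CPM in the KO-labelled libraries. Krt19, the bile duct keratin, had a log2 fold change of 0.69 (SE 0.47). Dendritic cell genes had 3 of 6 tested genes fitted higher, with Cd74 at a log2 fold change of 0.13 (SE 0.20) and H2-Ab1 at −0.15 (SE 0.22), both of antigen presentation. They summed to 62.4 to 88.9 CPM and 73.9 to 86.4 CPM. Monocyte genes had 3 of 5 tested genes fitted higher, among them Plac8 (log2 fold change 0.25, SE 0.23), while Fn1, a plasma protein mostly from hepatocytes, made up most of their sum of 618 to 1142 CPM and 560 to 817 CPM.

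Neutrophil genes were scarce, at sums of 4.86 to 10.8 CPM and 3.84 to 8.14 CPM, with 1 of 3 tested genes fitted higher and Ly6g, the defining one, at 0 reads in all 6 libraries. The leading genes there were Csf3r (log2 fold change 0.51, SE 0.45) and S100a9 (−0.90, SE 0.76). Lymphocyte genes summed to 6.98 to 7.48 CPM in the WT-labelled and 2.41 to 6.63 CPM in the KO-labelled libraries, with 1 of 4 tested genes fitted higher and Cd4 at a log2 fold change of −2.21 (SE 0.59). Hepatocyte genes, which check the tissue, had 1 of 8 fitted higher and summed to 77839 to 112334 CPM and 77397 to 82092 CPM, with Alb, albumin, at a log2 fold change of −0.20 (SE 0.33) and Apoa1, of high-density lipoprotein, at −0.50 (SE 0.31). The fat tissue list had 3 of 3 tested genes fitted higher and sums of 2015 to 2709 CPM and 2825 to 3481 CPM, nearly all of it from Car3 (log2 fold change 0.31, SE 0.26), which liver makes as well. Plin4 was the 1 gene of that list with an unadjusted p under 0.05 (log2 fold change 1.71, SE 0.56, edgeR adjusted p = 0.460), and was named after its values were seen. Cfd, adipsin, had a log2 fold change of 0.84 (SE 0.73).

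**Figure D5:**
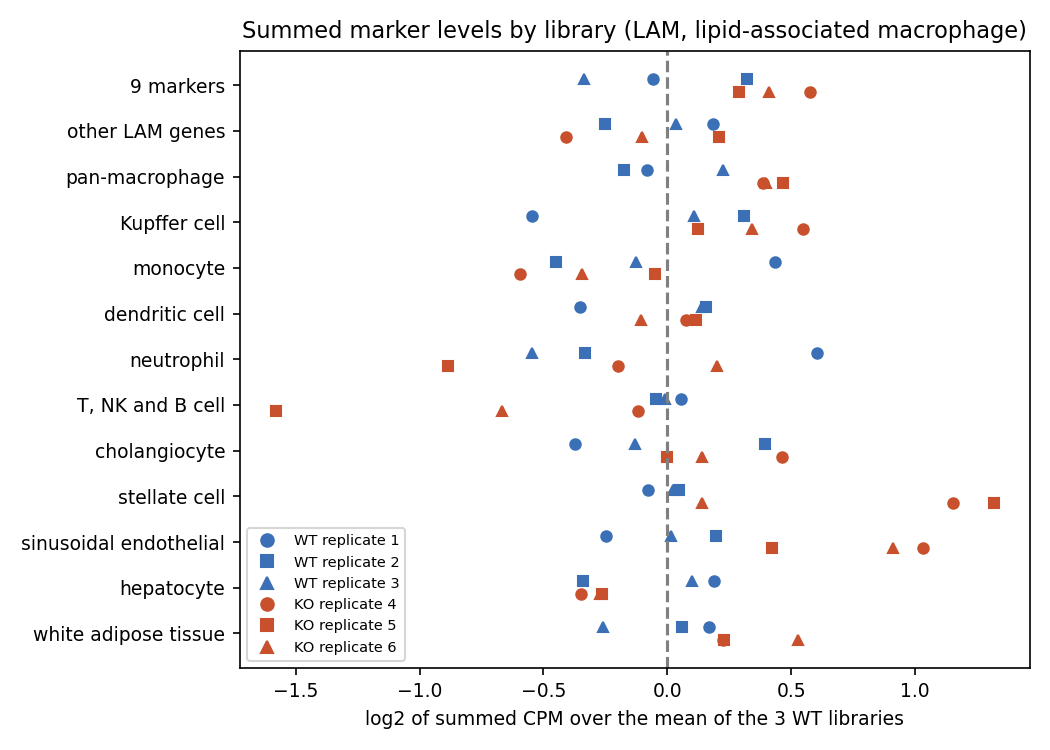
Summed CPM of each marker list in each library (x axis, log2 of the sum over the mean of the 3 WT-labelled libraries), with 1 symbol per library. The KO-labelled libraries lie above the WT-labelled ones without overlap for the general macrophage list (241 to 254 against 163 to 215 CPM), stellate, sinusoidal endothelial and fat tissue lists.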

How the data were processed

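The submitters' processing notes name mm10, featureCounts 1.5.0-p3, HISAT2 2.0.5 and DESeq2 1.16.1, without roles or settings; strand handling is not given in these sources. The authors' deposited table holds whole read counts per gene. A second deposited table holds FPKM, whose implied library size is the geometric mean total multiplied by DESeq2's size factor (ratio 1 in each library). Groups and replicate numbers come from the titles. Each pair of libraries differed beyond sampling noise (lowest chi-square per degree of freedom 46.9).

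Counts were fitted for all genes with edgeR 4.0.16 (R 4.3.3): filterByExpr (0.584 CPM in 3 libraries), TMM, quasi-likelihood test, Benjamini-Hochberg adjustment over 13693 genes, biological coefficient of variation 34.7%. SEs divide the log2 fold change by the root of F, and log2 CPM has a prior count of 2. Tested on simulated data, the fit kept its share of false calls under the threshold with trended and with tagwise dispersions, but exceeded it in an earlier tagwise draw, for which no reason was found. Promoters are from RefSeq and exons from GENCODE vM21, whose spans match the deposited table for all 9 markers.

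Markers and gene lists were chosen with earlier results of these data known. Named by rule were all 9 markers; Trem2, Tyrobp and the 2 smallest p per direction of the other lipid-associated genes; the 2 most abundant genes of each cell type list (some are not reported here); and per marker the 2 nearest profiles. Alternatives were DESeq2 1.42.0, limma 3.58.1, other scalings, filters and thresholds, FPKM with pseudocounts of 1 and 0.1, the mitochondrial share as covariate, and libraries left out.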

Additional observations from a re-analysis of the deposited data

How the results depend on the processing

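In the edgeR fit 0 of the 8 tested markers were called, and this held at an adjusted p of 0.1, under every other scaling and filter, with FPKM and with any library left out. Limma-voom without sample quality weights also called 0 of the 8. DESeq2 called 2 of them, and limma-voom with sample quality weights 4 (Capg, Lgals3, Spp1 and Cd68), in a fit that called 29.7% of all genes; there 4 had an unadjusted p under 0.05 as higher. The median log2 fold change of 0.68 was 0.36 with FPKM and a pseudocount of 1, and 0.30 without WT replicate 1 and KO replicate 4 together; with 1 library left out it ranged from 0.43 (without WT replicate 1) to 0.86 (without WT replicate 2), 7 or 8 markers were fitted higher, and 2 or 3 had an unadjusted p under 0.05. Capg, Lgals3, Cd63, Cd68 and Itgax kept their direction under all alternatives that gave a value. Cd9 was at −0.071 with quality weights, Spp1 at −0.052 with the mitochondrial share as covariate and −0.050 without WT replicate 3, and Clec7a at −0.0099 with that covariate and −0.15 without WT replicate 1 and KO replicate 4 together. The cause was not tested. No paired analysis was possible because the titles give each library its own number. Depth limits Gpnmb and Itgax most, at 0 to 33 reads per library. Reads were also few for Clec7a, at 21 to 40 per library, and for Capg, at 17 to 23 per WT-labelled library.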
